A study of Mus musculus with 4 samples.

Results

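The genes described are the p53 family (Trp53, Trp63 and Trp73) and the 2 MDM regulators of p53 (Mdm2 and Mdm4). Their members were every array probe whose accession is a RefSeq transcript of 1 of these 5 genes, which gave 10 probes of the 41174 on the array (5 genes of 17016): 2 for Trp53, 2 for Trp63, 1 for Trp73, 2 for Mdm2 and 3 for Mdm4. Messenger RNA was measured on 1-colour Agilent arrays in 4 samples of mouse embryonic stem cells, 1 array per sample. All 4 came from cells called Tc-inducible FBL-kd, in which FBL (fibrillarin, the nucleolar methyltransferase of ribosomal RNA) is knocked down when tetracycline (Tc) is absent, and all were grown on gelatin with leukaemia inhibitory factor (LIF). The 2 controls had Tc (1000 ng/mL) and the 2 knock-down samples had none, both for 2 days. Loss of FBL and absence of Tc therefore go together in these samples, and their effects cannot be told apart. A change after knock-down below is meant in this sense. For the mouse strain, the number of clones and the construct behind the Tc switch, nothing is stated in the sources used here. Nor do the labels say whether the samples of a group were separate cultures, so the p-values rest on differences between these samples, and these may be technical alone.

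p53, encoded by Trp53, is a transcription factor that halts the cell cycle or triggers cell death after stress. MDM2 is a ubiquitin ligase that marks p53 for degradation, and the Mdm2 gene is itself switched on by p53, which closes a feedback loop. MDM4 (MDMX) binds p53 and blocks its activity, and works together with MDM2. When ribosome production in the nucleolus is disturbed, free ribosomal proteins can bind MDM2 and hold it away from p53. p63 is best known for its part in stratified epithelium and p73 in neural and ciliated tissue, and both occur as forms with or without an activating N-terminal domain. p53 is regulated in large part at the level of the protein, which arrays do not measure.

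A level below is the log2 signal of a probe relative to the 75th percentile of its array, so 0 is that percentile and 1 unit is 2-fold. A level is compared between samples for 1 probe. Levels of different probes are not read as more or less RNA, and where 2 probes are subtracted within an array, only the shift of that difference between samples is read. A change is the knock-down mean minus the control mean, tested with limma over the 25078 probes that stood well above background in both samples of 1 group or of both groups, and a probe rose or fell where its adjusted p was under 0.05. Mdm2 and Trp73 rose, each about 2.8-fold. Of the 8 member probes that were tested, 3 rose (both Mdm2 probes and the Trp73 probe) and 0 fell, against 6.20% of all tested probes called in either direction, 3.73% rising and 2.47% falling. At an unadjusted p under 0.05, 5 were higher and 0 lower, where 9.47% of all tested probes were higher and 10.6% lower. With no filter on dim probes none of these calls held, as 0 of 41124 probes then passed (3878 at an unadjusted p under 0.05). Groups did not overlap for 7 of the 8, with the knock-down samples higher for 5 and lower for 2, where they did not overlap for 51.4% of all tested probes and were higher after knock-down for 20.8%. The other 2 member probes, both of Trp63, did not pass the filter on dim signals.

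Fbl itself had levels of 8.63 and 8.12 in the controls, against 5.98 and 5.94 after knock-down. It fell by 2.41 ± 0.25 (SE, n = 2 per group, limma adjusted p = 4.44e-04), so the labels match the targeted gene. Over all probes, 936 rose and 620 fell. Controls 1 and 2 and knock-down 1 shared 1 slide and knock-down 2 had a slide of its own. Within the shared slide, which leaves out knock-down 2, 462 probes rose and 224 fell. Leaving out knock-down 1 gave 567 rising and 396 falling, leaving out control 1 gave 3020 rising and 2378 falling, and leaving out control 2 gave 1502 rising and 1724 falling. The standard deviation of the difference between replicates over tested probes was 0.51 for the controls and 0.31 for the knock-down samples. Leaving out a sample, or keeping to the shared slide, leaves 1 group with a single sample, which is assumed to vary like the other group. The spread in these fits comes from the 2 knock-down samples alone where a control is left out and from the 2 controls alone where a knock-down sample is left out, so their p-values are not on the footing of the fit of all 4 samples. Of the 9 embryonic stem cell markers on the array, all 9 were well above background on all arrays and 0 passed in limma (0 rising and 2 falling at an unadjusted p under 0.05). Of these 2, Nanog had levels of 4.29 and 4.29 in the controls, against 3.55 and 3.38 after knock-down. Its change was −0.82 (limma adjusted p = 0.0605), and that of the other, Zfp42, was −0.61 (limma adjusted p = 0.183). Of 7 fibroblast markers 3 were well above background on all arrays (Col1a1, Col1a2 and Thy1), 1 on a single array (Lum) and 3 on none (Col3a1, Dcn and Postn). Of the 3 tested, 0 passed in limma, with 0 rising and 1 falling at an unadjusted p under 0.05. That one was Thy1, a surface protein, with levels of 2.68 and 2.04 in the controls, against 1.55 and 1.67 after knock-down (change −0.75, limma adjusted p = 0.140).

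The promoter sequences of the genes that rose, Mdm2 and Trp73, and of Trp53 for comparison, are shown as RefSeq gives them for build GRCm38.p6, from 250 bases before the start of transcription to 50 after it, 5′ to 3′ on the strand of the gene. Both starts of Trp73 in the table are shown, the upstream one at chr4:154139826-154140125 and the internal one at chr4:154097124-154097423, both on the minus strand. Mdm2 is at chr10:117710709-117711008 on the minus strand and Trp53 at chr11:69580109-69580408 on the plus strand. Capitals mark matches on either strand to 6 motifs. The first is a p53 half-site, searched as RRRCWWGYYY on either strand, where R is A or G, W is A or T and Y is C or T. The GC box was searched as GGGCGG on either strand. The CCAAT box was searched by the letters of its name. An E box was searched as CACGTG, its own reverse complement. The TATA box was searched as TATAAA on either strand. The E2F site was searched as TTTGGCGC on either strand. No matches overlapped in these windows.
Mdm2: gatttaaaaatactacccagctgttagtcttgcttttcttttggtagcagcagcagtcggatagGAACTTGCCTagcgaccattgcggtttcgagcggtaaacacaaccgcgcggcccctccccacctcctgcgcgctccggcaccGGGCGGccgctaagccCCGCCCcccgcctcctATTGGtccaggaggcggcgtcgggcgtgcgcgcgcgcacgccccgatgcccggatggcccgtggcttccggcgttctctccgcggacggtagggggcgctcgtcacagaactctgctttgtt
Trp73, upstream start: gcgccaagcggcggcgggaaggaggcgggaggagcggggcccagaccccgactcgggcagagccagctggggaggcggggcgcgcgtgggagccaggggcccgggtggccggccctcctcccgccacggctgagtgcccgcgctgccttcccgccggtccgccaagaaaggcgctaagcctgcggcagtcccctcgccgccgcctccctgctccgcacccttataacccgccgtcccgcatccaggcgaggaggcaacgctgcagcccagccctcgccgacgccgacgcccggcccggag
Trp73, internal start: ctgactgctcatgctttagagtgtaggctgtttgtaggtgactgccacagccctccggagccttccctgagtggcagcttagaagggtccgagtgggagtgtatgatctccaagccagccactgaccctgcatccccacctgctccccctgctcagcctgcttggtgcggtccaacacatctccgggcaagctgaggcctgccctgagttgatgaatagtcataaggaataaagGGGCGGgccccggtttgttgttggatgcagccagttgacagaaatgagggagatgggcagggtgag
Trp53: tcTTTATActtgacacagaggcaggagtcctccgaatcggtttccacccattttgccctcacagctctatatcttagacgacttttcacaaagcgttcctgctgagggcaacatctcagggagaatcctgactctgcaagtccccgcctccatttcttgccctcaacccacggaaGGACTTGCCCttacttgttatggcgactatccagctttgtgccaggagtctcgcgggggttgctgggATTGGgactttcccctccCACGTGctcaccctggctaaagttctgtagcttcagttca

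The Mdm2 window held 1 p53 half-site 186 bases before the start, 2 GC boxes at 104 and 88 bases and a CCAAT box at 72 bases before it. The Trp53 window held 1 half-site 75 bases and a CCAAT box 8 bases before the start. Of all 32851 promoter windows of this length, 8.36% held a half-site, 35.7% a GC box and 37.4% a CCAAT box. The upstream Trp73 window was 77.7% G or C with none of these matches, and the internal one was 57.7% G or C with 1 GC box. The median window was 52.7% G or C. Trp53 also held an E box (in 7.15% of windows) 10 bases after the start and, 248 bases before it, a TATA box (in 13.6%). Both Mdm4 windows held no match, and the E2F letters were in 0 of the 6 windows of these genes and in 0.514% of all. Trp63 has no entry. A match is a run of letters and no evidence of binding in these cells. Sites outside these windows were not searched.

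For Mdm2, the ligase that degrades p53, the 2 probes gave nearly the same result. Probe A_52_P469842 had levels of 1.58 and 1.86 in the controls, against 3.21 and 3.22 after knock-down. Probe A_51_P201346 had levels of −1.23 and −1.03 in the controls, against 0.35 and 0.41 after knock-down. Each knock-down sample was above each control by more than 1 unit at both probes, while replicates lay within 0.28 of each other. The first probe rose 2.81-fold (log2 1.49 ± 0.23 SE, 95% interval 0.98 to 2.00, limma adjusted p = 0.00383) and the second 2.85-fold (log2 1.51 ± 0.23 SE, 1.01 to 2.01, limma adjusted p = 0.00326). Within the shared slide, with its single knock-down sample and its spread taken from the controls, the changes were 1.48 for both (limma adjusted p = 0.0370 and 0.0379). Of all tested probes, 441 rose more than the first and 435 more than the second, or 1.76% and 1.73%. In these bulk samples, a change in the RNA per cell and a change in the share of cells that make it cannot be told apart.

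Probe A_51_P201346 was printed 10 times on each array, which shows the spread of the measurement on 1 RNA. Its processed signals ranged from 204 to 295 in control 1 and from 330 to 466 in control 2. In knock-down 1 they ranged from 753 to 906 and in knock-down 2 from 571 to 711. These are signals before scaling between arrays, and no spot of a control was as bright as any spot of a knock-down sample. On the scaled log2 level, the standard deviation over the 10 spots of an array was 0.084 to 0.157, the highest control spot was at −0.78 and the lowest knock-down spot at 0.19. Spots of 1 array share their RNA and count as 1 measurement in the test.

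**Figure D1:**
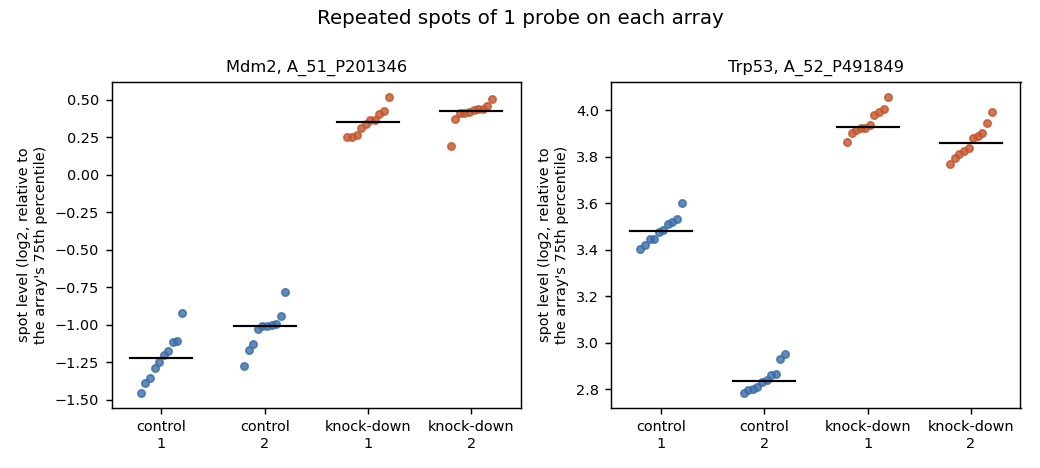
Level of each of the 10 spots of an Mdm2 probe (left) and a Trp53 probe (right) on each array, on the vertical axis as log2 relative to the array's 75th percentile, with the arrays on the horizontal axis (blue, controls; orange, knock-down samples) and a line at the median of the spots. The Mdm2 spots of the knock-down samples all lie at 0.19 or above and those of the controls at −0.78 or below, and the Trp53 spots of the 2 controls, which overlapped before scaling, lie apart from each other.

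Trp73 encodes p73. Its 1 probe, A_52_P410636, had levels of −0.87 and −1.49 in the controls, against 0.45 and 0.17 after knock-down. The groups lay apart, and the gap between the controls (0.61) was larger than that between the knock-down samples (0.28). Trp73 rose 2.81-fold (log2 1.49 ± 0.27 SE, 95% interval 0.89 to 2.08, limma adjusted p = 0.00903), and 442 of the tested probes rose more. Within the shared slide the change was 1.63 (limma adjusted p = 0.0138). The call ended without knock-down 1, where the change was 1.35 (limma adjusted p = 0.0631). The unscaled processed signals were 305 and 285 in the controls, against 863 and 564 after knock-down. The probe is assigned to transcript NM_011642 with no position in it, so forms with and without the activating domain were not told apart.

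For Trp53, the gene of p53, the 2 probes differed. Probe A_52_P491849 had levels of 3.48 and 2.85 in the controls, against 3.95 and 3.87 after knock-down. The knock-down samples were the 2 higher ones, but the controls differed from each other by 0.64, nearly as much as the change of 0.74 ± 0.26 (SE). The change did not pass (limma adjusted p = 0.142, unadjusted p = 0.0180), with a 95% interval of 0.16 to 1.33 for this probe taken alone. Without control 1, with the spread taken from the knock-down samples alone, the change was 1.06 and passed (limma adjusted p = 0.0207), and without control 2 it was 0.42 (limma adjusted p = 0.101). It was 0.79 within the shared slide (limma adjusted p = 0.824). It also passed with a variance trend (limma adjusted p = 0.0404) and with a variance trend and a robust prior together (limma adjusted p = 0.0136).

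This probe too was printed 10 times, with processed signals of 5923 to 6781 in control 1, 5504 to 6190 in control 2, 9210 to 10530 in knock-down 1 and 6831 to 7961 in knock-down 2. The standard deviation of its log2 spots within an array was 0.057 to 0.070. Before scaling, the spots of the 2 controls overlapped, and no control spot was as bright as any knock-down spot. The constants subtracted from control 1 and control 2 were 9.13 and 9.64, so most of the 0.64 between their levels came with the scaling. Probe A_52_P781398 of Trp53 had levels of 0.77 and 0.25 in the controls, against 0.51 and 0.83 after knock-down. These groups overlapped, and the change was 0.15 ± 0.26 (SE), with an interval of −0.42 to 0.73 (limma adjusted p = 0.803). The sign of this change turned without control 2 (−0.11) and within the shared slide (−0.0038). Before scaling, the processed signals of this second probe were 956 and 952 in the controls, against 900 and 887 after knock-down. Unscaled, both knock-down samples were thus lower at this probe and higher at the first.

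The 2 Trp53 probes can be set against each other within an array, where the scaling cancels. The first minus the second was 2.71 and 2.59 in the controls, against 3.44 and 3.04 after knock-down. The difference was higher in both knock-down samples, by 0.59 in the mean (exact permutation test, two-sided, p = 0.33, the smallest that 2 against 2 samples allow). Both probes are assigned to NM_011640.

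Mdm4 encodes MDM4, and its 3 probes did not move together. Probe A_51_P176954 had levels of −1.61 and −1.59 in the controls, against −1.89 and −1.97 after knock-down. Both knock-down samples were lower, by 0.33 ± 0.22 (SE), and the change did not pass (95% interval −0.82 to 0.16, limma adjusted p = 0.460). Probe A_52_P485905 had levels of −2.96 and −2.20 in the controls, against −3.19 and −2.99 after knock-down. Its change of −0.51 ± 0.28 (SE) did not pass (interval −1.14 to 0.11, limma adjusted p = 0.355), although it did without control 1 (−0.89, limma adjusted p = 0.0324) and was −0.13 without control 2 (limma adjusted p = 0.553). The controls lay further apart (0.76) than the group means did.

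Probe A_52_P174937 of Mdm4 went the other way, with levels of −5.02 and −4.44 in the controls, against −2.65 and −4.17 after knock-down. Knock-down 1 stood 1.52 above knock-down 2, which lay closer to control 2 than to knock-down 1. Its processed signals were 17.3 and 36.9 in the controls, against 101 and 27.7 after knock-down, well above background on all 4 arrays but dim, with a scanner error of 10.1% to 17.5% of the signal. The change of 1.32 ± 0.43 (SE) did not pass (interval 0.37 to 2.26, limma adjusted p = 0.109). It was 0.55 without knock-down 1 (limma adjusted p = 0.923), 2.08 within the shared slide (limma adjusted p = 3.35e-04) and 0.46 with normexp background correction (limma adjusted p = 0.33). With the replicate number as a block it passed (1.32, limma adjusted p = 3.13e-04), and so it did with a variance trend (0.0291), with trend and robust (0.0224) and over probes well above background on all arrays (0.0237).

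Within arrays, the brightest Mdm2 probe minus the brightest Mdm4 probe was 3.19 and 3.45 in the controls, against 5.10 and 5.19 after knock-down, a shift of 1.82 (exact permutation test, two-sided, p = 0.33). These 2 probes thus changed unequally on every pair of arrays from the 2 groups. The other Mdm4 probes, with changes of −0.51 (A_52_P485905) and 1.32 (A_52_P174937), were not set against Mdm2 in this way. The brightest Mdm2 probe minus the brightest Trp53 probe was −1.90 and −0.99 in the controls, against −0.75 and −0.65 after knock-down. This shift of 0.75 (exact permutation test, two-sided, p = 0.33) became 0.29 without control 1 and 1.21 without control 2. The p of 0.33 is the smallest these 4 samples allow. Of the 5 pairs of tested probes that belong to 1 gene, the Mdm2 pair differed least between the groups, by −0.02 (exact permutation test, two-sided, p = 1).

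**Figure D2:**
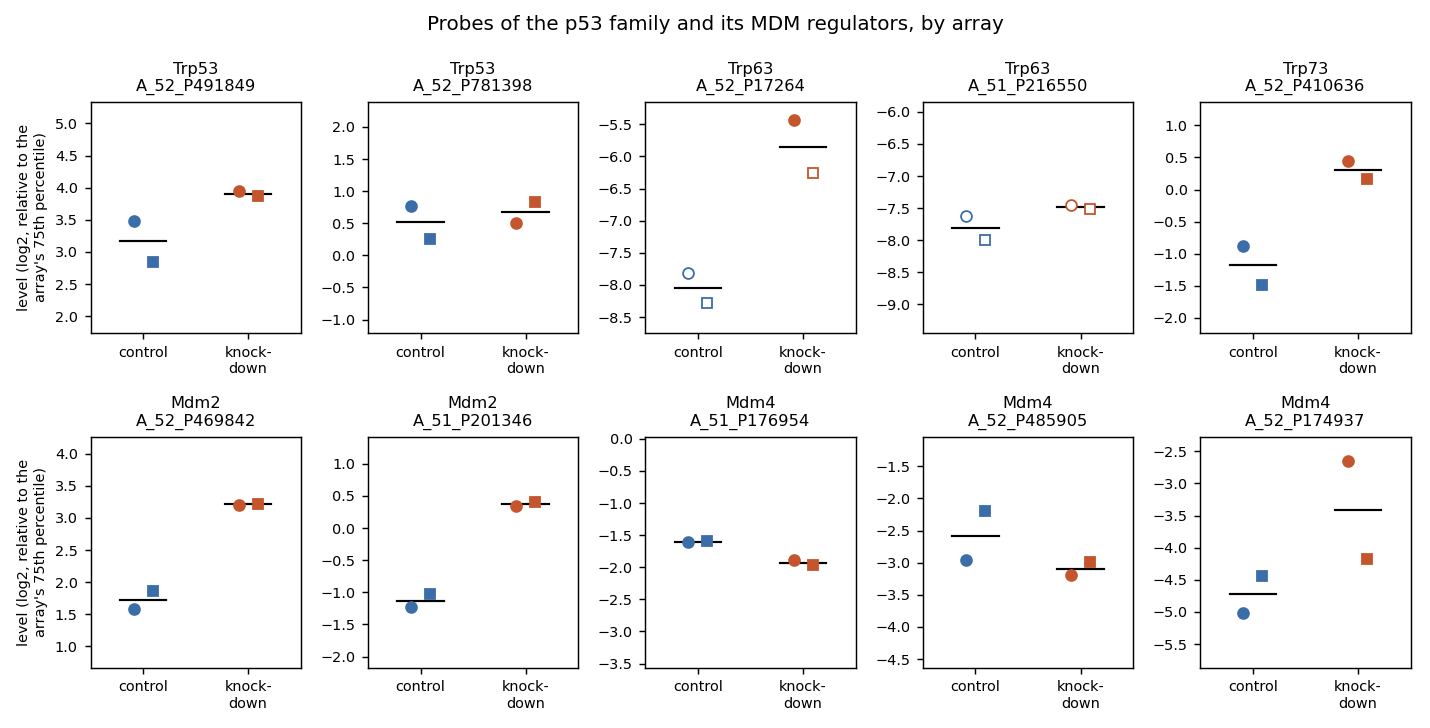
Level of each of the 10 member probes in each sample, on the vertical axis as log2 relative to the array's 75th percentile (all panels span 3.6 units), with controls in blue and knock-down samples in orange, replicate 1 as a circle, replicate 2 as a square, open symbols where the probe was not well above background and a line at the group mean. The groups lie apart by more than 1 unit at both Mdm2 probes and at Trp73, and the probes of Mdm4 and of Trp53 do not all move alike.

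Trp63, the gene of p63, was at the edge of detection. Probe A_51_P216550 was not well above background on any array, with levels of −7.62 and −7.99 in the controls, against −7.46 and −7.52 after knock-down. Probe A_52_P17264 had levels of −7.82 and −8.28 in the controls, against −5.44 and −6.26 after knock-down, and was well above background only in knock-down 1. The dimmest probe well above background lay at −5.51 and −6.00 in the 2 controls. The knock-down mean of −5.85 was under the −5.75 that these limits allow for the controls, so no fold is given. The processed signals of this probe were 2.48 and 2.58 in the controls, against 14.6 and 6.51 after knock-down, with scanner errors of 25.5% of the signal in knock-down 1 and 43.6% in knock-down 2. Neither probe was tested.

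**Figure D3:**
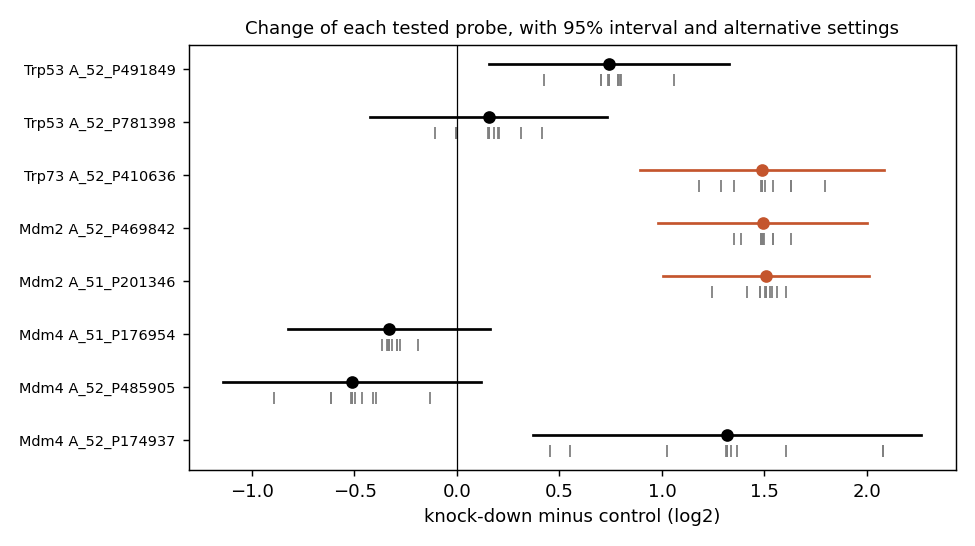
Change of each of the 8 tested member probes on the horizontal axis (knock-down minus control, log2), with its 95% interval as a bar (orange where the limma adjusted p was under 0.05) and, as grey ticks, the change under each alternative setting or with 1 sample left out. The Mdm2 and Trp73 changes lie between 1.18 and 1.80 in all settings, and the second Trp53 probe lies on both sides of 0.

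The profiles nearest to each member were found over the 4 arrays, as the Euclidean distance between log2 levels centred on the mean of each probe. Those nearest to Mdm2 were Tdrd7 (distance 0.069), Cd80 (0.099) and Adcy2 (0.099). Those nearest to Trp73 were Pitpnm2 (0.022), Pou3f3 (0.11) and Col23a1 (0.14). Those nearest to the brighter Trp53 probe were Fam83g (0.033), Itgb4 (0.039) and Zfpm1 (0.041), and those nearest to the brightest Mdm4 probe were Hsd17b11 (0.0096), Zpr1 (0.016) and Rufy1 (0.019). With 4 samples, these are the closest of many profiles and a description only. The change of Cd80 was 1.57 and that of Pou3f3 1.41. Adcy2 was well above background on 1 of 2 control arrays. Col23a1 was so on both knock-down arrays and no control array, which gives only a bound: at least 2.21-fold higher after knock-down, with measured means of −6.12 in the controls and −4.61 after knock-down (limma adjusted p = 0.00652).

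The tested genes that act on p53 or MDM2 passed in limma in 0 cases in the fit of all 4 samples that gave the changes above. They were counted by their brightest probe, against 6.69% of the 12811 tested genes with a symbol, whose median change was −0.06 and of which 10.2% rose and 9.90% fell at an unadjusted p under 0.05. Of the genes listed, Gnl3, Atr, Hdac1 and Usp7 had no probe that bore their symbol. The brightest probes of Mapk8 and Itch did not pass the filter on dim signals, so nothing is said of these genes. Of 16 nucleolar and ribosomal proteins that bind MDM2, 0 passed, and 0 had an unadjusted p under 0.05. Their median change was 0.07 and their changes ran from −0.40 to 0.32. The 2 brightest, Rps14 and Rps20, proteins of the small ribosomal subunit, had changes of 0.09 (limma adjusted p = 0.880) and 0.15 (limma adjusted p = 0.813).

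Of 13 tested kinases, acetylases, deacetylases and the phosphatase that modify p53, 0 passed and 2 rose at an unadjusted p under 0.05, with a median of 0.02. Aurka, a mitotic kinase, had a change of −0.04 (limma adjusted p = 0.950) and Kat8, an acetyltransferase, one of 0.53 (limma adjusted p = 0.221). In this list 1 rose without control 1, without control 2, with a variance trend, and with trend and robust prior together. Of 11 ubiquitin enzymes of the family 0 passed, with 1 rising and 1 falling at an unadjusted p under 0.05 and a median of 0.01, and 1 rose and 1 fell without control 1, while 1 fell under normexp and with trend and robust prior together. Trim28, a chromatin corepressor, had a change of −0.10 (limma adjusted p = 0.882) and Stub1, a chaperone-bound ligase, one of 0.15 (limma adjusted p = 0.807). Of 8 cofactors 0 passed and 3 rose at an unadjusted p under 0.05, with a median of 0.31, and 3 rose without control 1, 2 with a variance trend (with or without the robust prior), 1 under normexp and 1 with the replicate block. Banp had a change of 0.21 (limma adjusted p = 0.679) and Ttc5 one of −0.04 (limma adjusted p = 0.946).

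Genes switched on by p53 rose in large part, though this list was chosen with earlier results of these data known. Of 37 tested targets other than Mdm2, 19 rose (51.4%) and 0 fell in limma, with 28 rising and 1 falling at an unadjusted p under 0.05, against 4.35% of tested genes with a symbol rising and 2.34% falling. Their median change was 0.90, with changes from −0.56 to 2.46. One of the 19, Eda2r, a receptor of the tumour necrosis factor receptor family, was well above background in the knock-down samples only, so it entered the test through the group where it was high. It was at least 1.74-fold higher after knock-down, with measured means of −6.89 and −4.95 (limma adjusted p = 0.0209). Without it 18 of 36 rose, and with it at its bound the median was 0.81. Ppm1d and Rchy1 are on this list and also on the lists above of genes that act on p53. Plk2, a polo-like kinase, rose by 2.46 ± 0.22 (SE, limma adjusted p = 2.80e-04) and Ephx1, an epoxide hydrolase, by 2.36 ± 0.25 (SE, limma adjusted p = 4.84e-04). The count was 12 without knock-down 2, which is also the value within the shared slide, and 29 without control 1. The change of Mdm2 (1.49) lay inside the range of these targets, but that range is wide enough to hold most tested probes, so this says little about Mdm2.

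Of 9 tested genes of squamous epithelium that p63 is known to regulate, 3 rose and 0 fell in limma. Of tested genes with a symbol, 4.35% rose and 2.34% fell. At an unadjusted p under 0.05, 4 of the 9 rose and 2 fell (Sfn and Col17a1, both −0.56), against 10.2% and 9.90%. The median change was 0.54. The 3 that rose in limma were Perp, Jag2 and Fgfr2. Perp (2.04, limma adjusted p = 7.49e-04) is a desmosomal protein that is also on the p53 list. Sfn is on the p53 list too, as its 1 gene that fell at an unadjusted p under 0.05. Jag2 (1.14, limma adjusted p = 0.0266) is a Notch ligand and Fgfr2 (1.02, limma adjusted p = 0.0228) a growth factor receptor. The keratin genes Krt5 (0.54, limma adjusted p = 0.530) and Krt14 (−0.17, limma adjusted p = 0.772) did not pass. The count was 1 without knock-down 1, 1 without knock-down 2 and 5 without control 1. Of 6 squamous markers 5 were well above background on all arrays, Dsg3 was so on none, and Krt15 alone rose (2.01). The summed level of the 6 markers (each level turned back to a linear scale) was 6.29 and 4.18 in the controls, against 8.52 and 8.33 after knock-down, nearly all of it from Itgb4, an integrin, whose own change did not pass (0.75, limma adjusted p = 0.134). The other 5 summed to 0.541 and 0.424 in the controls, against 0.609 and 0.627 after knock-down. Of 5 tested neural markers 1 rose (Neurod1, 2.71), with 1 rising and 1 falling at an unadjusted p under 0.05 and a median of 0.02. Of 5 trophectoderm markers 1 fell (Elf5, −1.63, well above background on 1 of 2 knock-down arrays). At an unadjusted p under 0.05, 3 of them rose and 1 fell, and their median was 0.71. Of 6 primitive endoderm markers 1 fell (Sox7, −2.15), with 1 rising and 2 falling at an unadjusted p under 0.05 and a median of −0.17. The part of these cell types in the Trp63 and Trp73 values was not tested.

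**Figure D4:**
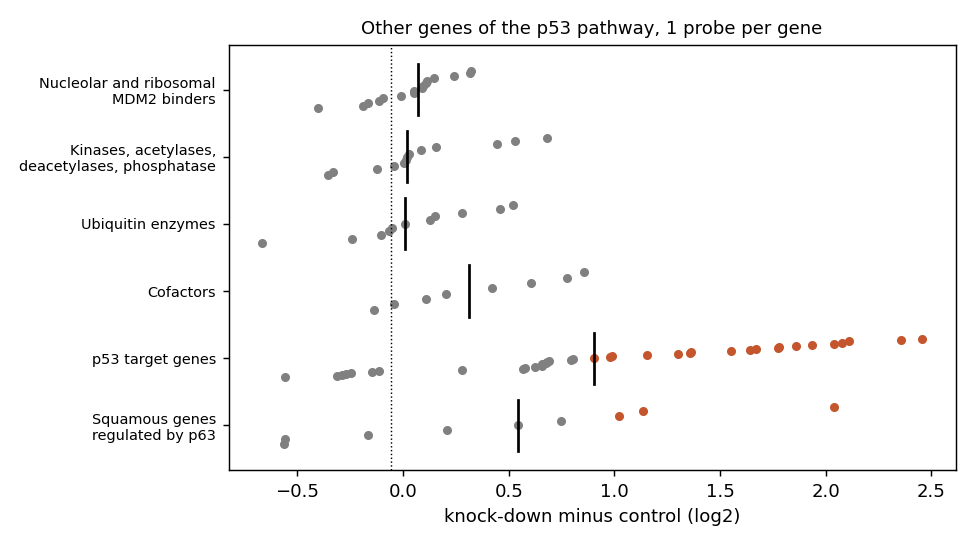
Change of each tested gene of 6 lists on the horizontal axis (knock-down minus control, log2, brightest probe per gene), with orange points where the limma adjusted p was under 0.05, a solid line at the median of each list and a dotted line at the median of all genes with a symbol (−0.06). The p53 targets reach from −0.56 to 2.46 with 19 of 37 called, and none of the points in the first 4 lists is called.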

How the data were processed

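Per the file headers, the authors read the arrays with Agilent Feature Extraction 10.7.3.1, and the intensity deposited for a spot had its background subtracted and was spatially detrended. The values used are log2 values from the deposited value table: for 99.8% of entries on each array, the table and the log2 processed signal differed by 1 constant to within 0.01. Its 75th percentile lay at 0 to within 0.01, and its medians were −3.85, −3.98, −3.94 and −3.91. It is therefore on a log2 scale relative to the 75th percentile, its probes are not centred, and higher values mean more signal. No source used here names the software behind the table.

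Of 43379 non-control spots per array, 96 to 138 carried an outlier flag and 0 were saturated. Between 59.9% and 64.5% were well above background. Probes with every spot flagged on an array (50) were left out. Probes were named by accession without version through the RefSeq gene table of GRCm38.p6, which gave 24375 probes 1 symbol and left 16799 unnamed. The array design refers to another build, so no probe coordinates are given.

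Values were tested with limma 3.58.1 (lmFit and eBayes, two-sided) with Benjamini-Hochberg adjustment over the 25078 tested probes, under R 4.3.3. Standard errors and 95% intervals are those of this fit. The fit code was tested on simulated data. Named genes are the members, Fbl, the 3 nearest profiles per member, and per list up to 2 called genes per direction or its 2 brightest. Fgfr2, Sfn, Krt5, Krt14, Krt15, Eda2r, Ppm1d, Rchy1, the listed genes without a test and the cell type markers were named after the values were seen. The members and lists were chosen with earlier results of these data known. Alternatives covered the source of the values, background correction, scaling, the filter, the variance prior, probes per gene, slide, replicate block and each sample left out. The normexp alternative used median pixel signals and was chosen after seeing the data, since the files hold no mean signal column.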

Additional observations from a re-analysis of the deposited data

How the results depend on the processing

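Direction held for both Mdm2 probes and Trp73 in every alternative run, with Mdm2 changes of 1.24 to 1.61 (A_51_P201346) and 1.35 to 1.63 (A_52_P469842). With no filter on dim probes 0 probes rose and 0 fell in limma (3878 had an unadjusted p under 0.05), 0 p53 targets rose, and the calls of Fbl (−2.41, limma adjusted p = 0.0997), Mdm2 (A_52_P469842, 1.49, limma adjusted p = 0.156; A_51_P201346, 1.51, limma adjusted p = 0.153) and Trp73 (1.49, limma adjusted p = 0.230) ended. The prior then had 3.46 degrees of freedom against 8.07. Trp73 ran from 1.18 to 1.80 with 1 sample left out, Fbl from −2.66 to −2.16, the brightest Mdm4 probe from −0.37 to −0.29 and Trp53 (A_52_P491849) from 0.42 to 1.06. Trp53 passed with a variance trend and with trend and robust (0.74 in both). Counts of rising probes were 1457 with trend and robust, 462 with the slide as a block and 462 to 3020 with 1 sample left out. Counts of falling probes were 408 with quantile normalization, 1006 with trend, 1195 with trend and robust, 224 with the slide as a block and 224 to 2378 with 1 sample left out. Rising p53 targets numbered 12 with the slide as a block and 12 to 29 with 1 sample left out. In the fits with the slide or the replicate number as a block, without a knock-down sample and under normexp, the prior had infinite degrees of freedom, so every probe had the same variance.

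Replicate numbers were shared between groups but the deviations of same-numbered samples were nearly unrelated (r = 0.023 across probes, which are not independent). The labels give no pairing beyond the number, and 1 such correlation cannot show whether the samples were paired. With the replicate block 1274 probes rose and 1012 fell. The difference between the 2 Mdm2 probes turned sign under normexp (0.14), without control 2 (0.026) and without knock-down 2 (0.0047), with −0.061 without control 1 the other end of its range, the difference between the Mdm4 probes A_51_P176954 and A_52_P485905 without control 2 (−0.19, up to 0.55 without control 1), and the change of the Trp53 probe A_52_P781398 without control 2 (−0.11), without knock-down 2 (−0.0038) and with the slide as a block (−0.0038). The planned normexp correction on mean signals was not run, because the files hold no such column. The number of arrays limits the precision, and probes near background, both Trp63 probes among them, have no usable level.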
